A study of Mus musculus with 24 samples.

Results

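The genes described here encode the nuclear subunits of the mitochondrial respiratory chain and of the ATP synthase. They were chosen by name, with symbols of the Nduf, Sdh, Uqcr, Cox4 to Cox8 and Atp5 families, and the rule used no measured value. Of 18194 genes on the arrays, 81 matched: 35 of complex I (NADH dehydrogenase), 4 of complex II (succinate dehydrogenase), 8 of complex III (cytochrome bc1), 17 of complex IV (cytochrome c oxidase) and 17 of complex V (ATP synthase). They were carried by 168 probe sets, and 49 of the genes had more than 1, of which the brightest over all 24 arrays was used. All names but 1 belong to known subunits. The exception is Cox7a2l, whose product joins complexes III and IV into supercomplexes. Ndufa4 carries a complex I name and is counted there, although its product is now assigned to complex IV.

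The respiratory chain passes electrons from NADH (complex I) and succinate (complex II) through complex III to oxygen at complex IV, and complexes I, III and IV pump protons across the inner mitochondrial membrane. The ATP synthase lets the protons flow back through a rotating ring of c subunits and makes ATP. Distal tubule cells are rich in mitochondria, because the sodium pump on their basolateral side uses much ATP. Several subunits exist in alternative isoforms, some of them typical of muscle, lung or testis. Subunits encoded by mitochondrial DNA do not fall under the name rule.

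The arrays measured RNA of tubules that were microdissected, once the tissue had been treated with collagenase, from the left kidney of male mice of the C57BL/6J strain. The 2 segments were the distal convoluted tubule together with the connecting tubule (DCT/CNT) and the cortical collecting duct (CCD), with no mutation or drug in either group. The light phase and the dark phase lasted 12 h each, and tissue was taken at 6 zeitgeber times (ZT0, the start of the light phase, then ZT4, ZT8, ZT12, ZT16 and ZT20). Each of the 12 groups had 2 pools of RNA, from 5 animals per time. The labels do not say whether the pools of a time, or the segments, came from the same animals, so the p-values measure the spread between pools and not between animals. Values are log2 intensities as the authors deposited them, and differences are DCT/CNT minus CCD. A difference of 1 is a doubling, and values of different genes cannot be ranked against each other because every probe set has its own brightness.

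The segments could be told apart by their markers. The mean of 9 DCT markers lay between 9.41 and 10.99 on DCT/CNT arrays, against 7.99 to 8.88 on CCD arrays, and 7 CNT markers between 10.6 and 11.0, against 9.38 to 9.75. The mean of 13 principal cell markers lay between 9.97 and 10.3 on DCT/CNT arrays, against 11.2 to 11.6 on CCD arrays, and that of 17 intercalated cell markers between 10.4 and 10.7, against 10.8 to 11.1. Markers of the proximal tubule (18 genes) ran from 7.27 to 8.87 on DCT/CNT arrays and from 7.32 to 8.90 on CCD arrays, so both segments held some of that RNA to a variable degree. Array medians were alike (5.80 to 5.89 in DCT/CNT, 5.83 to 5.87 in CCD), but the interquartile range of all values was 3.32 to 3.65 in DCT/CNT and 4.08 to 4.28 in CCD. The CCD arrays thus spread their values wider. The upper quartile lay between 7.68 and 7.89 on DCT/CNT arrays and between 8.15 and 8.25 on CCD arrays. Most of the 81 genes are bright, and 9 of the 81 genes had a mean below 8.

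The direction of the group as a whole depended on the scaling. In the deposited values 58 of the 81 genes differed between the segments, beside 77.4% of all genes, and after quantile normalisation 57 did, beside 64.7%. In the deposited values 14 genes were higher in DCT/CNT and 44 were lower (limma, adjusted p under 0.05 over all genes). Of all 18194 genes, 30.4% were higher and 47.0% were lower by the same rule. After quantile normalisation, which gives every array the same set of values, 44 were higher and 13 were lower, beside 33.0% and 31.6% of all genes. With arrays at equal medians 42 were higher and 18 lower, beside 43.8% and 33.2% of all genes, and after cyclic loess normalisation 53 and 10, beside 33.3% and 33.1%. The median difference of the 81 genes was -0.10 in the deposited values, against -0.13 for the median gene of the array, and 0.15 after quantile normalisation, against 0.01. Of the 44 genes lower in the deposited values, 13 stayed lower after quantile normalisation, 18 were no longer called and 13 were called higher. All but 1 of the 14 genes higher in the deposited values stayed higher. In RNA of whole tubule pieces, fewer mitochondria-rich cells and less RNA per cell cannot be told apart.

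Below, the genes called the same way in 4 scalings carry the account: the deposited values, arrays set to equal medians, quantile normalisation and cyclic loess normalisation. There were 13 higher and 10 lower, beside 18.9% and 22.2% of all genes. The higher ones were Ndufa1, Ndufa2, Ndufa8, Ndufa13, Ndufb1, Ndufc1 and Ndufs4 of complex I, Uqcrq of complex III, Cox4i2, Cox6a2, Cox8b and Cox8c of complex IV and Atp5k of complex V. The lower ones were Ndufa3, Ndufa7 and Ndufs3 of complex I, Uqcr10 of complex III, Cox6b2 of complex IV and Atp5e, Atp5g1, Atp5g2, Atp5l and Atp5mpl of complex V. By complex, 7 of 35 genes were higher (20%) and 3 lower (8.57%) in complex I. In complex IV 4 of 17 were higher (23.5%) and 1 lower (5.88%), and in complex V 1 of 17 higher (5.88%) and 5 lower (29.4%). The larger share of each complex lies near that of all genes. The smaller shares lie below those of all genes, but rest on 3, 1 and 1 genes. No difference between complexes, or from all genes, was tested.

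**Figure D1:**
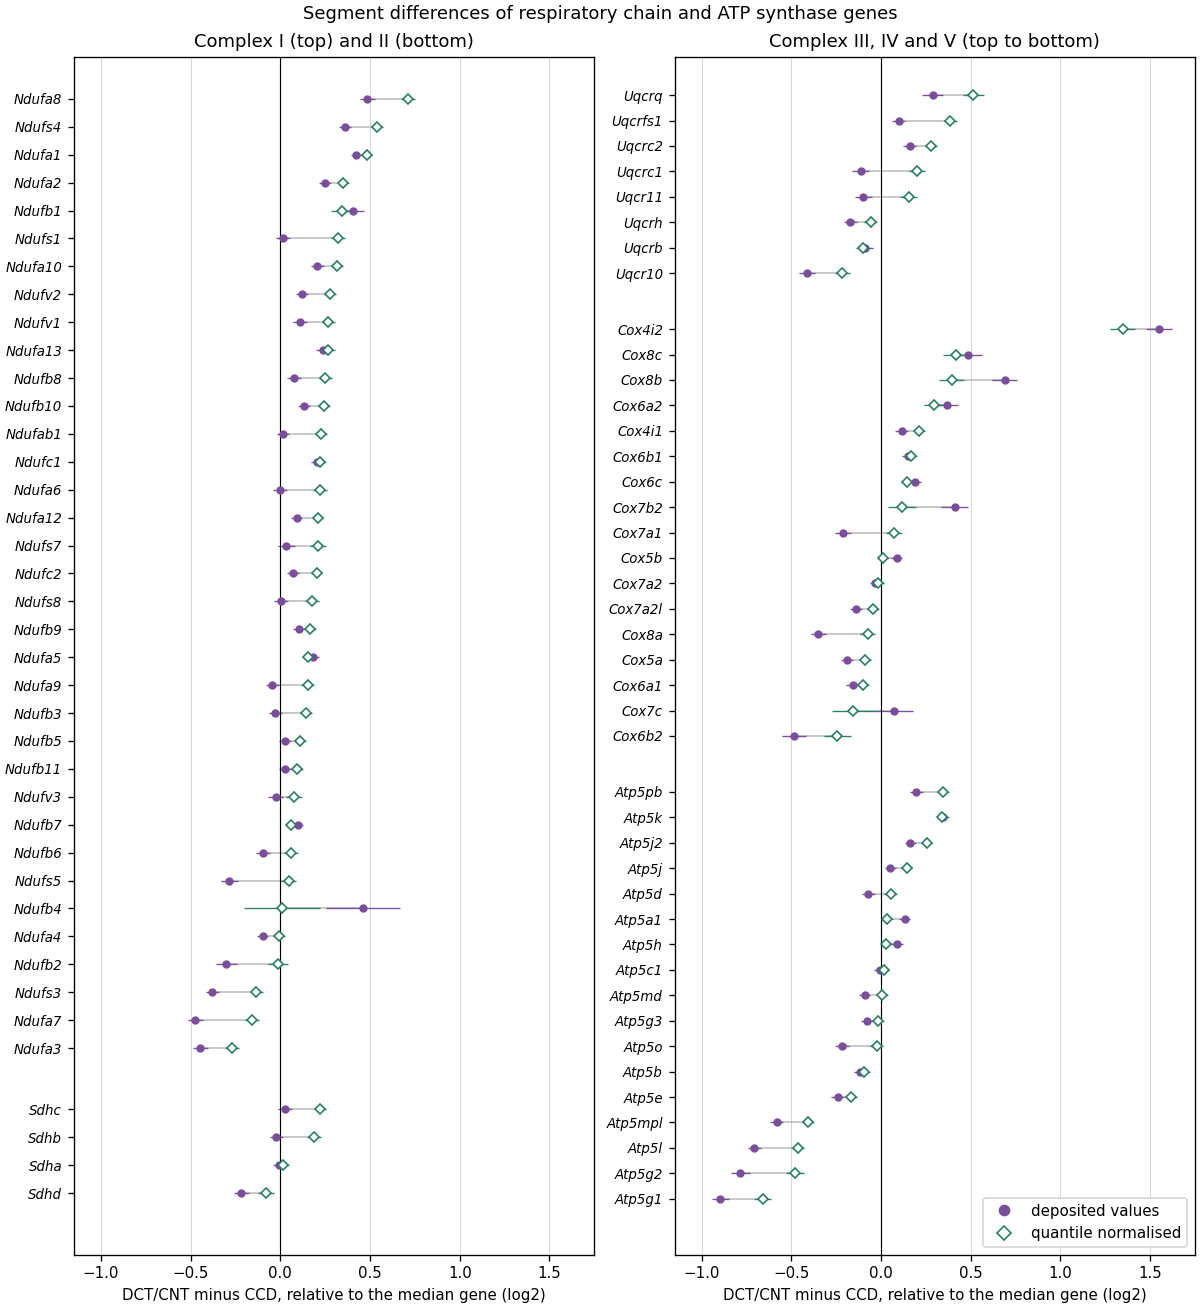
Difference of each of the 81 genes, DCT/CNT minus CCD (log2), relative to the median gene, with 1 row per gene, filled circles for deposited values and open diamonds for quantile-normalised values. Bars are limma's standard errors. Most complex I genes move to the right after quantile normalisation, Cox4i2 stands at 1.55 and 1.35, and Atp5g1, Atp5g2, Atp5l and Atp5mpl stay on the left in both.

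The subunits of complex I were the ones most often higher in DCT/CNT after quantile normalisation. Of 35, 26 were higher and 3 lower, beside 33.0% and 31.6% of all genes. With arrays at equal medians, which leaves their spread as it was, 23 were higher and 5 lower, beside 43.8% and 33.2%. In the deposited values 7 were higher and 16 lower, beside 30.4% and 47.0%. The median difference of complex I was -0.06 in the deposited values, 0.15 at equal medians and 0.21 after quantile normalisation. Groups of 12 and 12 arrays did not overlap for 17 genes that were higher and 1 that was lower after quantile normalisation, and for 1 and 4 genes in the deposited values. Of all genes, 7.59% and 7.13% were free of overlap after quantile normalisation, and 8.43% and 19.4% in the deposited values.

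Ndufa8, an accessory subunit on the intermembrane space side, showed the largest difference upwards. Its values ran from 11.50 over a median of 11.80 to 11.92 in DCT/CNT, against 11.15, 11.43 and 11.52 in CCD. The groups overlapped only through 1 DCT/CNT pool at ZT8, which lay below 2 of the CCD pools. The difference was 0.36 (SE 0.04, adjusted p = 8.23e-07) and 0.72 after quantile normalisation (SE 0.04, adjusted p = 8.13e-10), or 1.28-fold and 1.65-fold, and was positive at all 6 times (0.19 to 0.45). The 250 bases before the start of Ndufa8 are printed because they hold 2 copies of the core motif of NRF1, a transcription factor known to drive many nuclear genes of the respiratory chain, and the promoter motifs of all the genes are taken up below. The sequence is from RefSeq, build GRCm38.p6, chr2:36049339-36049588, minus strand, 5′ to 3′, with the motif in capitals.
Ndufa8: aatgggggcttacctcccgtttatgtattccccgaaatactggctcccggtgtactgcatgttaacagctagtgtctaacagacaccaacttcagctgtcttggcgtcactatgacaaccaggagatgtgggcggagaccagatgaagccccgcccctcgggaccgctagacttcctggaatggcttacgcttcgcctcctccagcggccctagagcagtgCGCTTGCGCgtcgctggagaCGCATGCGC

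Ndufa1, a small membrane subunit encoded on the X chromosome and needed for assembly of the complex, did not overlap between the segments. It ran from 13.10 over 13.15 to 13.21 in DCT/CNT, against 12.78, 12.87 and 12.91 in CCD. The difference was 0.30 (SE 0.03, adjusted p = 5.03e-07) and 0.49 after quantile normalisation. Ndufs4, an accessory subunit whose loss causes complex I deficiency, was 0.24 higher (SE 0.03, adjusted p = 1.29e-05) and 0.55 higher after quantile normalisation. A second bright probe set of Ndufs4, however, differed by -0.15 (SE 0.04), so the gene's direction depends on which of its probes is read. Ndufb1, a membrane arm subunit on a dim probe set, ran from 6.26 over 6.49 to 6.76 in DCT/CNT, against 6.00, 6.21 and 6.45 in CCD, a difference of 0.28 (SE 0.06, adjusted p = 0.000507). Ndufa2 and Ndufa13 (GRIM-19) were higher by 0.12 and 0.11 (SE 0.03 and 0.04, adjusted p = 0.0036 and 0.0111), and by 0.36 and 0.28 after quantile normalisation. Ndufc1 was higher by 0.08 (SE 0.03, adjusted p = 0.0487), but its second probe set differed by -0.48 (SE 0.07).

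Among the lower genes of complex I, Ndufa7 and Ndufa3, both accessory subunits, and Ndufs3, a core subunit of the arm that projects into the matrix, stood apart. Ndufa7 ran from 9.84 over 10.03 to 10.22 in DCT/CNT, against 10.48, 10.63 and 10.85 in CCD. Its difference was -0.60 (SE 0.04, adjusted p = 3.01e-09), and its 4 other probe sets differed by -0.17 to -0.86. Ndufa3 ran from 11.62 over 11.72 to 11.89 in DCT/CNT, against 12.18, 12.30 and 12.42 in CCD. Ndufs3 ran from 11.07 over 11.15 to 11.28 in DCT/CNT, against 11.48, 11.68 and 11.83 in CCD. In the deposited values the DCT/CNT arrays lay below every CCD array for each of these genes. Ndufa3 differed by -0.57 (SE 0.04, adjusted p = 5.32e-09) and Ndufs3 by -0.50 (SE 0.04, adjusted p = 7.66e-09). After quantile normalisation Ndufa3, Ndufa7 and Ndufs3 were still lower, with differences of -0.26, -0.15 and -0.12 (SE 0.04 each), with adjusted p = 2.9e-05, 0.00521 and 0.00816.

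The remaining subunits of complex I show how far the scaling carries. Ndufa6, Ndufa9 and Ndufb3 were lower in the deposited values, with differences of -0.13, -0.17 and -0.15 (SE 0.04, 0.04 and 0.03), and higher by 0.23, 0.16 and 0.15 after quantile normalisation (SE 0.04, 0.04 and 0.03), with adjusted p under 0.05 both ways. In all, 8 complex I genes turned in this way and 11 that were not called in the deposited values were called higher. The core flavoprotein subunits Ndufv1 and Ndufv2, which take the electrons from NADH, differed by -0.02 and -0.01 in the deposited values (SE 0.04 and 0.03, adjusted p = 0.741 and 0.863), and by 0.28 and 0.29 after quantile normalisation. Ndufb10 of the membrane arm differed by 0.01 and 0.25. Other bright probe sets of Ndufv1 differed by -0.10 and -0.30 in the deposited values, and those of Ndufv2 by 0.01 and -0.12 (SE 0.04 each). Ndufb4 was dim, with values from 3.85 to 5.70 in DCT/CNT and 3.71 to 5.23 in CCD, and was not called in either scaling.

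Succinate dehydrogenase is the only enzyme of the citric acid cycle that sits in the respiratory chain. All 4 genes were lower in DCT/CNT in the deposited values, and after quantile normalisation 2 were higher and the others were not called. Sdha, the flavoprotein that oxidises succinate, differed by -0.13 and 0.03, and Sdhb, the iron-sulfur subunit, by -0.15 and 0.20. The membrane anchors Sdhc and Sdhd differed by -0.10 and 0.23, and by -0.34 and -0.07. For Sdhd the values ran from 12.07 over 12.18 to 12.35 in DCT/CNT, against 12.33, 12.55 and 12.63 in CCD, with a difference of -0.34 (SE 0.04, adjusted p = 2.64e-06). No gene of complex II was called the same way in the 4 scalings.

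Of the 8 genes of complex III, 1 was higher and 5 were lower in the deposited values, and after quantile normalisation 5 were higher and 1 was lower. Uqcr10, a small subunit of the membrane part, was lower in both. It ran from 11.33 over 11.49 to 11.59 in DCT/CNT, against 11.77, 12.02 and 12.26 in CCD, without overlap, a difference of -0.54 (SE 0.04, adjusted p = 2.22e-08) and -0.20 after quantile normalisation (SE 0.04, adjusted p = 0.000829). Uqcrq, another small membrane subunit, was higher in both. It ran from 11.45 over 11.64 to 11.80 in DCT/CNT, against 11.16, 11.51 and 11.65 in CCD, a difference of 0.16 (SE 0.06, adjusted p = 0.0197) and 0.52 after quantile normalisation. The groups overlapped in the deposited values and did not after quantile normalisation. Uqcrc1, a core protein, and Uqcr11 turned, with -0.24 and -0.22 in the deposited values and 0.21 and 0.16 after quantile normalisation. Uqcrh, the hinge protein near cytochrome c1, differed by -0.30 in the deposited values (SE 0.04, adjusted p = 3.12e-06) and by -0.05 after quantile normalisation. The Rieske protein gene Uqcrfs1 differed by -0.03 and 0.40, the core protein gene Uqcrc2 by 0.04 and 0.29, and Uqcrb by -0.21 and -0.09.

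In cytochrome c oxidase, isoforms of the same subunit often differed in direction. The genes higher in DCT/CNT in all 4 scalings, Cox4i2, Cox6a2, Cox8b and Cox8c, are isoforms known from lung, muscle or testis and were read on dim probe sets. Of the common isoforms, Cox6a1 by -0.28 (SE 0.04), Cox8a by -0.47 (SE 0.04) and Cox7a2 by -0.16 (SE 0.03) differed and were called lower in the deposited values, while Cox4i1 (-0.01) and Cox6b1 (0.03) were not called. After quantile normalisation these 5 differed by -0.09, -0.06, -0.01, 0.22 and 0.18 in the same order, and Cox6a1 was still called lower (adjusted p = 0.0322).

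Cox4i2, the isoform of subunit 4 known from lung and from smooth muscle cells that sense oxygen, had the largest measured difference among the 81 genes, on a dim probe set. It ran from 6.20 over 6.40 to 6.66 in DCT/CNT, against 4.68, 4.96 and 5.50 in CCD. All its CCD values lay below 5.854, the median over all probe sets, and the values used here carry no call of whether a probe set stood above background. Every DCT/CNT array lay above every CCD array, and the difference was positive at each time (1.14 to 1.57). It came to 1.42 (SE 0.07, adjusted p = 8.35e-11) and to 1.36 after quantile normalisation (SE 0.07, adjusted p = 3.76e-10). Of 8 markers of smooth muscle and mesangium, 6 were called higher and 0 lower in the same arrays (deposited values), beside 30.4% and 47.0% of all genes. Their mean ran from 6.59 to 7.57 in DCT/CNT and from 6.10 to 6.78 in CCD. Myh11, smooth muscle myosin, differed by 1.83 (SE 0.11) and Acta2, smooth muscle actin, by 1.43 (SE 0.15). The remaining markers differed by much less, from 0.18 (Pdgfrb) to 0.50 (Col1a1), and Col1a2 and Col3a1 were not called. The part of smooth muscle and mesangium in the difference of Cox4i2 was not tested.

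Cox8b, the muscle isoform of subunit 8, ran from 5.24 over 5.73 to 6.31 in DCT/CNT, against 5.01, 5.18 and 5.50 in CCD, a difference of 0.56 (SE 0.07, adjusted p = 1.96e-06). Cox8c, the testis isoform, was higher by 0.36 (SE 0.08, adjusted p = 0.000453) and Cox6a2, the muscle isoform of subunit 6a, by 0.25 (SE 0.06, adjusted p = 0.00108). For these isoforms the groups overlapped. Cox7b2, known from testis, lay between 2.25 and 3.12 on all arrays and was higher by 0.28 in the deposited values (SE 0.08, adjusted p = 0.00279) but not after quantile normalisation (adjusted p = 0.177). Cox6b2, the testis isoform of subunit 6b, went the other way. It ran from 6.92 over 7.39 to 7.71 in DCT/CNT, against 7.68, 8.02 and 8.26 in CCD, a difference of -0.61 (SE 0.07, adjusted p = 6.39e-07) and -0.23 after quantile normalisation (SE 0.08, adjusted p = 0.0128). The groups overlapped only through 1 DCT/CNT pool at ZT16, which lay above 1 CCD pool.

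Cox7a1, the heart and muscle isoform of subunit 7a, was read well above the dim range, from 10.71 over 10.78 to 10.92 in DCT/CNT, against 10.82, 11.21 and 11.34 in CCD. It differed by -0.34 (SE 0.04, adjusted p = 4.29e-06) and by 0.08 after quantile normalisation (adjusted p = 0.12). Cox8a, the common isoform of subunit 8, ran from 10.71 over 10.80 to 10.95 in DCT/CNT, against 11.14, 11.28 and 11.43 in CCD. Its second bright probe set differed by -0.94 (SE 0.04), so the gene was lower in the deposited values on both, while another, dim probe set differed by 1.06 (SE 0.17). The second probe set of Cox7a2 went against the first, with 0.16 (SE 0.03). Cox7a2l, the supercomplex factor, differed by -0.26 (SE 0.03, adjusted p = 2.73e-06) and by -0.03 after quantile normalisation.

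The ATP synthase held the largest decreases. In the deposited values 12 of 17 genes were lower in DCT/CNT and 1 was higher, and after quantile normalisation 6 were lower and 4 were higher. Of the 5 genes lower in all 4 scalings, 4 encode parts of the membrane domain: Atp5g1 and Atp5g2 encode the c subunit of the rotating ring, and Atp5l and Atp5mpl encode small subunits beside it, of which Atp5l (subunit g) serves in dimerisation. Atp5e encodes the epsilon subunit of the central stalk. For 10 of the 12 the segments did not overlap in the deposited values, which makes 10 of 17 genes, beside 19.4% of all genes. After quantile normalisation 4 genes were lower without overlap (Atp5g1, Atp5g2, Atp5l and Atp5mpl), and 4 others were higher without overlap. Of all genes, 7.13% were lower and 7.59% higher without overlap in that scaling.

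Atp5g1 ran from 10.68 over 10.95 to 11.17 in DCT/CNT, against 11.75, 11.99 and 12.13 in CCD. The gap between the segments was wider than the whole range of values within either. The difference was -1.02 (SE 0.05, adjusted p = 6e-11), or 0.493-fold, and -0.65 after quantile normalisation (SE 0.05, adjusted p = 1.23e-08), or 0.638-fold, and lay between -1.25 and -0.85 at the single times. A second, dim probe set differed by -0.82 (SE 0.09). Atp5g2 ran from 9.78 over 10.06 to 10.22 in DCT/CNT, against 10.74, 10.98 and 11.18 in CCD. It differed by -0.91 (SE 0.06, adjusted p = 7.15e-10), or 0.533-fold, and by -0.47 after quantile normalisation (SE 0.05, adjusted p = 1.18e-06).

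Atp5g3, the remaining gene of the c subunit, differed by much less. It ran from 12.88 over 12.92 to 13.00 in DCT/CNT, against 13.03, 13.12 and 13.23 in CCD, still without overlap in the deposited values. The difference was -0.21 (SE 0.03, adjusted p = 3.86e-05) and -0.004 after quantile normalisation (SE 0.03, adjusted p = 0.912). The mature c subunit is the same protein from all 3 genes, which differ in their mitochondrial import sequences and in their control, so their upstream windows are printed side by side. Each holds 250 bases before the start, from RefSeq on build GRCm38.p6, minus strand, 5′ to 3′: Atp5g1 at chr11:96075632-96075881, Atp5g2 at chr15:102671048-102671297 and Atp5g3 at chr2:73911327-73911576. Capitals mark the E-box CACGTG in Atp5g1 and at the left in Atp5g3, the NRF1 core, overlapping on both strands, in Atp5g2, and the binding element of the estrogen-related receptors (TCAAGGTCA, here on the opposite strand) in Atp5g3. Atp5g3 also has an NRF1 core just after its start, at chr2:73911297-73911321, printed with 8 bases on each side.
Atp5g1: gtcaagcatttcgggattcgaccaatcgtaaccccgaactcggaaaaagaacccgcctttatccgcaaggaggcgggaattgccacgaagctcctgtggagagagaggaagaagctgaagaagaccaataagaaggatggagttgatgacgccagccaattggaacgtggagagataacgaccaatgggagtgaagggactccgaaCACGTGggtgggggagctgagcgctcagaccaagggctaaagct
Atp5g2: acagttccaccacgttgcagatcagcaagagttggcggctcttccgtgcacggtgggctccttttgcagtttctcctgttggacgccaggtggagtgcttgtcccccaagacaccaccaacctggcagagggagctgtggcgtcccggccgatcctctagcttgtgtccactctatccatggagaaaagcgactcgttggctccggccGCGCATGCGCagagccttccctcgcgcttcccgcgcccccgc
Atp5g3: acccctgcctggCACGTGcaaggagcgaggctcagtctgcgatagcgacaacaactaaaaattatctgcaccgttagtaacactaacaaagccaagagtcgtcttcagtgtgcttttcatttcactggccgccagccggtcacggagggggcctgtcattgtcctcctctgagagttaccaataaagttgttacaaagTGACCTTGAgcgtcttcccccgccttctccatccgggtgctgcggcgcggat
Atp5g3 after the start: ccgcaccgCGCTTGCGCgcccagcc

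Atp5l ran from 10.87 over 10.93 to 11.11 in DCT/CNT, against 11.65, 11.77 and 11.92 in CCD, a difference of -0.83 (SE 0.04, adjusted p = 2.92e-11) and -0.45 after quantile normalisation (SE 0.04, adjusted p = 3.77e-08). Atp5mpl ran from 11.55 over 11.64 to 11.73 in DCT/CNT, against 12.21, 12.32 and 12.46 in CCD, a difference of -0.71 (SE 0.04, adjusted p = 9.16e-11) and -0.40 after quantile normalisation (SE 0.03, adjusted p = 8.43e-08). No other probe set was available for either gene. The upstream window of Atp5l, at chr9:44920743-44920992, minus strand, holds an NRF1 core, an ETS core and an E-box, in this order in capitals.
Atp5l: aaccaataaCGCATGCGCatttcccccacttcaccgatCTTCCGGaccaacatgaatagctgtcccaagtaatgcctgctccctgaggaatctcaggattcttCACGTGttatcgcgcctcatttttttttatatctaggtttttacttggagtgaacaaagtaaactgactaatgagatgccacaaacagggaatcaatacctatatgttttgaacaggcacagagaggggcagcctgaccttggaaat

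Atp5e was lower by a smaller step, from 12.71 over 12.78 to 12.86 in DCT/CNT, against 13.06, 13.12 and 13.26 in CCD, with -0.37 (SE 0.04, adjusted p = 1.81e-07) and -0.16 after quantile normalisation. Atp5b, the catalytic beta subunit, differed by -0.24 (SE 0.03, adjusted p = 5.49e-06) and by -0.08 (SE 0.03, adjusted p = 0.0275), while Atp5a1, the alpha subunit, differed by 0.01 (SE 0.03, adjusted p = 0.842) and 0.04 (SE 0.03, adjusted p = 0.191). The other probe sets of Atp5a1, also bright, differed by -0.09 and -0.23 in the deposited values (SE 0.03 and 0.04, limma over all probe sets, adjusted p = 0.0223 and 4.69e-05). The size of the Atp5a1 difference thus depends on which probe set is read. Atp5k, subunit e, was the only gene of the complex that was higher in the deposited values, from 13.30 over 13.38 to 13.44 in DCT/CNT, against 13.04, 13.16 and 13.26 in CCD. Its difference was 0.22 (SE 0.03, adjusted p = 1.24e-05) and 0.35 after quantile normalisation. Its other probe sets, also bright, differed by -0.36 (SE 0.04) and -0.44 (SE 0.05), so the direction of Atp5k rests on 1 of 3 probe sets. Atp5j (subunit F6) turned, with -0.07 (adjusted p = 0.04) in the deposited values and 0.15 after quantile normalisation (adjusted p = 0.000356). Atp5pb, subunit b of the outer stalk, and Atp5j2, a subunit of the membrane part, differed by 0.07 and 0.04 and, after quantile normalisation, by 0.36 and 0.26. Atp5o, the subunit that ties the outer stalk to the head, differed by -0.34 (SE 0.04, adjusted p = 5.5e-07) and by -0.01.

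**Figure D2:**
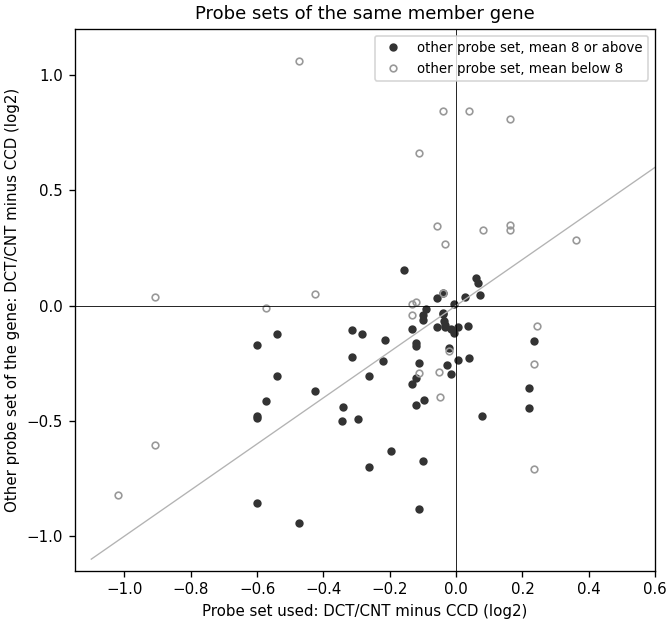
Difference DCT/CNT minus CCD (log2, deposited) of the probe set used for a gene on the x axis and of each other probe set of that gene on the y axis, for 87 probe sets of 49 genes, with open symbols below a mean of 8. The grey line marks equal values, and points at the upper left and lower right have opposite signs.

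The agreement between probe sets of 1 gene was checked over 87 further probe sets. The sign of the difference was the same as that of the probe set used in 62 of them. Of the 60 with a mean of 8 or above, 48 had the same sign, 34 were called, in a fit over all probe sets, for genes that were called on the probe set used, and 5 of these 34 had opposite signs. Those probe sets belong to Atp5k, Cox7a2, Ndufc1 and Ndufs4. In the fit over all probe sets, where more tests share the adjustment, the probe set used for Ndufc1 was no longer called (adjusted p = 0.0642). For 21 of the 81 genes the probe set used carries the suffix that the maker gives to probes that may also match other transcripts, and pseudogenes of these subunits are common. Sharing of signal with such copies was not tested.

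**Figure D3:**
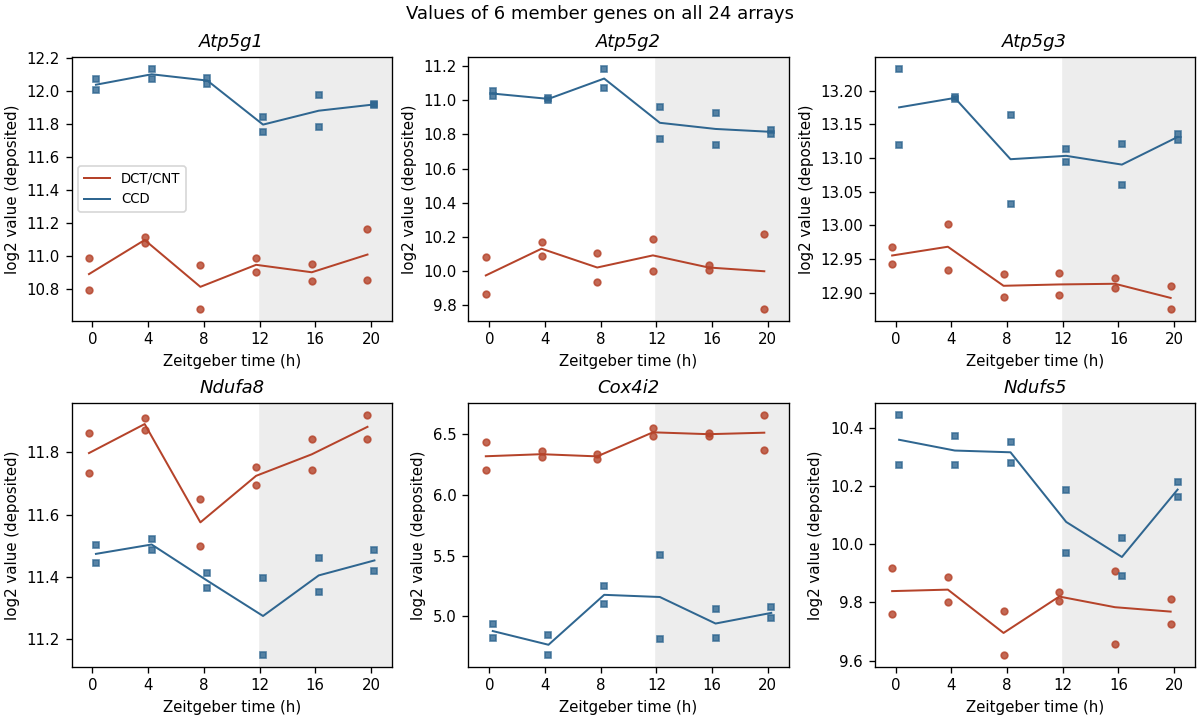
Deposited log2 values of 6 genes on all 24 arrays against zeitgeber time, with circles for DCT/CNT pools, squares for CCD pools, lines through group means and grey for the dark phase. The segments are apart at every time for Atp5g1, Atp5g2, Atp5g3 and Cox4i2, and Ndufs5 falls in CCD at ZT12 and ZT16. Each panel has its own scale.

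Within single times, with 2 pools against 2, the segment difference was called for 31 genes at ZT0, 28 at ZT4, 30 at ZT8, 27 at ZT12, 32 at ZT16 and 28 at ZT20 (deposited values). The shares of all genes called in these 6 comparisons were 40.5%, 40.4%, 45.0%, 47.3%, 50.2% and 49.5%. Of the called genes, 4, 4, 3, 7, 7 and 7 were higher in DCT/CNT. Over the day 46 of the 81 genes were lower in DCT/CNT at all 6 times and 15 were higher at all 6, in the deposited values. The median gene of the array was itself lower at each time, by differences from -0.18 to -0.097. The share of all genes with 1 direction at all 6 times was not counted, so these counts have no background beside them.

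How many of these genes were called rhythmic depended on how the spread was estimated. In DCT/CNT 0 of 81 genes were called rhythmic in a 24 h cosinor fit (limma), beside 6.57% of all genes. With an unadjusted p under 0.05 there were 5 (6.17%), beside 24.5% of all genes. In CCD 1 gene was called, Ndufs5, beside 2.47% of all genes, and 24 (29.6%) had an unadjusted p under 0.05, beside 14.2% of all genes. With a mean-variance trend, which lets limma expect less spread of bright genes, 6 genes were called in DCT/CNT and 16 in CCD, beside 8.26% and 3.95% of all genes. With array weights, and likewise without dim genes, 4 were called in CCD and 0 in DCT/CNT. The median amplitude, from mean to peak, was 0.045 in DCT/CNT and 0.069 in CCD, with median standard errors of 0.034 in both, against 0.133 and 0.103 for all genes, whose median standard error was 0.074. No gene was called for a difference of rhythm between the segments, beside 0.0110% of all genes, and with an unadjusted p under 0.05 there was 1, Ndufs5.

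Ndufs5, an accessory subunit of complex I, had values between 9.62 and 9.92 over all times in DCT/CNT, with an amplitude of 0.03 (SE 0.04, adjusted p = 0.893). In CCD its pools had 10.44 and 10.27 at ZT0, 10.27 and 10.37 at ZT4, 10.28 and 10.35 at ZT8, 9.97 and 10.18 at ZT12, 9.89 and 10.02 at ZT16 and 10.16 and 10.21 at ZT20. The pools of the first 3 times were thus all above the pools of ZT12, ZT16 and ZT20. The fitted amplitude in CCD was 0.20 (SE 0.04) with a peak at ZT 3.12, or 1.31-fold between trough and peak (adjusted p = 0.0484). The difference of rhythm between the segments had an adjusted p of 0.534, followed by Ndufs4, Uqcr10, Ndufv1 and Cox8c with adjusted p from 0.581 to 0.654. The call in CCD is marginal: it was lost in 18 of 24 fits that left out 1 array (highest adjusted p = 0.174), and in all 6 fits that left out 1 time (highest adjusted p = 0.368).

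Among the genes that were not called, the lowest adjusted p in DCT/CNT belonged to Ndufb10 (amplitude 0.10, peak ZT 23.5, adjusted p = 0.115), Cox7a2l (0.09, ZT 9.63, adjusted p = 0.143), Cox8b (0.22, ZT 16.4, adjusted p = 0.146) and Uqcrc2 (0.09, ZT 0.0903, adjusted p = 0.159). Of the others with the lowest p of their complex, Ndufv2, Uqcrb, Atp5o, Atp5j2, Sdhb and Sdhc had amplitudes of 0.05 to 0.09 there, with adjusted p from 0.204 to 0.528. In CCD several genes came close to the threshold with peaks early in the light phase. Cox7a1 had an amplitude of 0.19 (SE 0.05, adjusted p = 0.0558) and a peak at ZT 2.35, Sdhb 0.15 (SE 0.04, adjusted p = 0.0601) and ZT 1.95, and Uqcr10 0.17 (SE 0.04, adjusted p = 0.0608) and ZT 3.86. Of the other genes with the lowest p of their complex, Ndufv1, Uqcrfs1, Atp5o and Atp5pb had amplitudes of 0.12, 0.12, 0.10 and 0.10 (SE 0.03, 0.03, 0.03 and 0.04) and peaks at ZT 4.60, 2.44, 0.56 and 2.52, with adjusted p from 0.163 to 0.281. Cox7a2l and Sdhd, picked by the same rule and not called, peaked at other times in CCD. Their fitted peaks were at ZT 9.45 and ZT 16.9, with amplitudes of 0.08 and 0.06. The fitted peaks of 54 of the 81 genes in DCT/CNT and of 63 in CCD fell between ZT21 and ZT6, beside 6262 and 6612 of all 18194 genes. Lists of cell markers differed in how many peaked in that window. Among 18 proximal tubule markers 0 did in DCT/CNT and 1 in CCD. Of these 18, 10 and 3 had an unadjusted rhythm p under 0.05, with median amplitudes of 0.60 and 0.306. Of 13 principal cell markers 3 peaked there in DCT/CNT and 1 in CCD, and of 17 intercalated cell markers 8 and 3. Smooth muscle and mesangium had 1 and 2 of 8 there. Endothelial markers had 5 and 7 of 8, thick ascending limb markers 4 and 5 of 9, and leukocyte markers 3 and 4 of 7. DCT markers had 2 and 5 of 9, CNT markers 2 and 2 of 7, podocyte markers 0 and 0 of 4, and erythrocyte markers 0 and 1 of 2. The part of these cells in the fitted peaks of the 81 genes was not tested. This window was chosen after the peaks were seen, and the peak of a gene with a small amplitude is poorly placed.

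**Figure D4:**
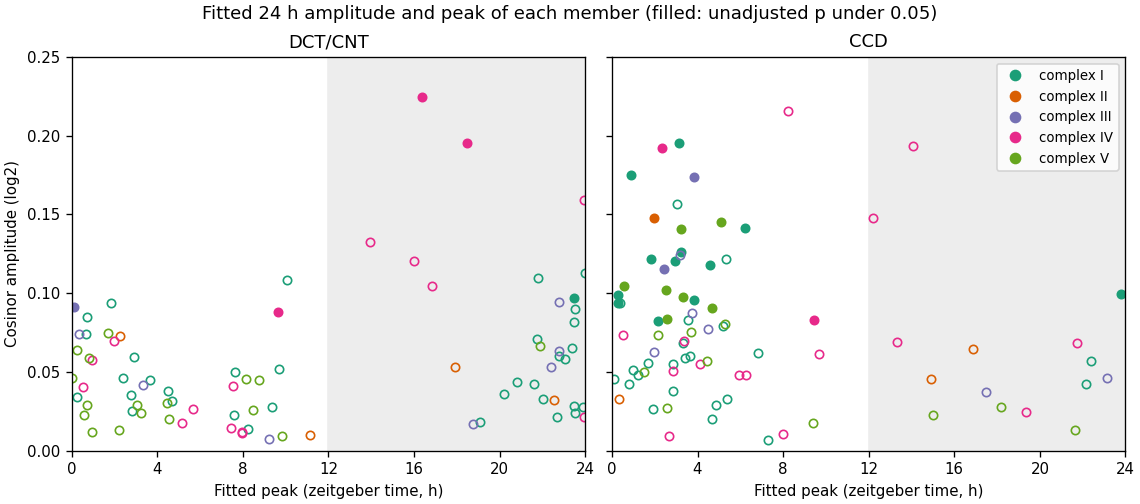
Fitted 24 h amplitude (log2) of each of the 81 genes against its fitted peak (zeitgeber time, h) in DCT/CNT and CCD, coloured by complex, with filled circles for an unadjusted p under 0.05 and grey for the dark phase. There are 5 filled circles in DCT/CNT and 24 in CCD, and those of CCD lie mostly early in the light phase.

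**Figure D5:**
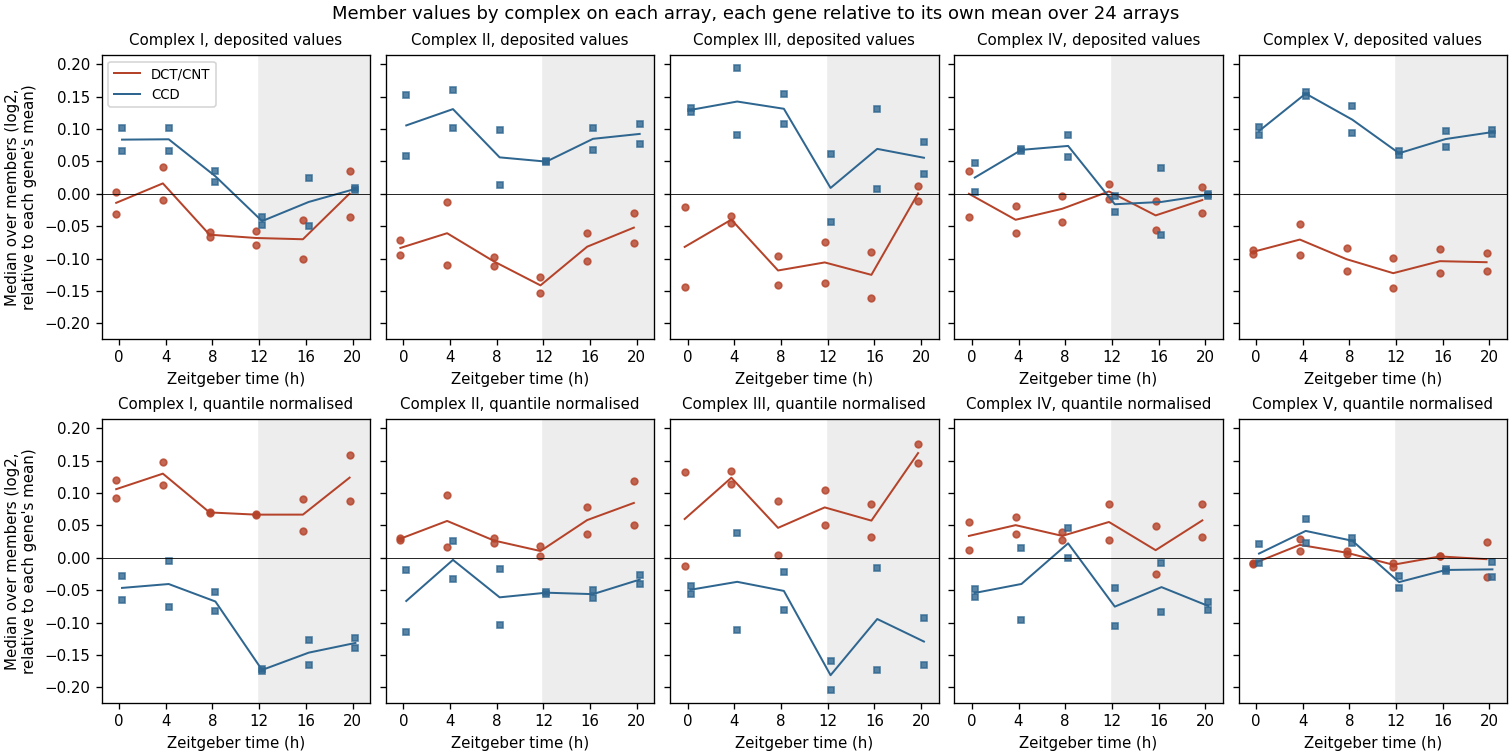
Median over the genes of each complex on every array (log2, each gene relative to its own mean over 24 arrays) against zeitgeber time, with deposited values above and quantile-normalised values below, circles and squares for pools and lines for group means. In the deposited values the group means of DCT/CNT lie below those of CCD at every time for complexes I, II, III and V. After quantile normalisation they lie above those of CCD at every time for complexes I to IV.

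Summed up by complex, the changes over the day were of the same size as the shift between scalings or smaller. In DCT/CNT the complex I genes were, in the median, at 0.003 and -0.03 relative to their own mean on the pools of ZT0, and at -0.06 and -0.08 on those of ZT12. In CCD they were at 0.10 and 0.07 at ZT0 and at -0.04 and -0.05 at ZT12. After quantile normalisation they were at 0.12 and 0.09 in DCT/CNT and at -0.03 and -0.06 in CCD at ZT0, and at 0.07 on both pools in DCT/CNT and -0.17 on both pools in CCD at ZT12. Complex I in CCD was thus lower at ZT12 than at ZT0 in both scalings, while the order of the segments was not the same. This step between the times was picked from the plot and was not tested.

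Other genes of mitochondrial energy metabolism behaved in part like the subunits. The counts of each list, from the assembly factors to the regulators of mitochondrial genes, are to be read beside the shares of all genes. Those were 30.4% higher and 47.0% lower in the deposited values, and 33.0% and 31.6% after quantile normalisation. Some lists lie near these shares, and no list was tested against them. Of the electron carriers and partners outside the name rule, Cyct, the testis form of cytochrome c, was higher by 0.53 (SE 0.06, adjusted p = 1.62e-06), and Atpif1, the inhibitor of the ATP synthase, was lower, with a difference of -0.35 (SE 0.03, adjusted p = 7.57e-08) and of -0.13 after quantile normalisation (SE 0.03, adjusted p = 0.00185). Cycs, the common cytochrome c, differed by -0.11 (SE 0.03, adjusted p = 0.00544) and by 0.05 (adjusted p = 0.197), and Cyc1, cytochrome c1, by -0.03 and 0.30. Of 43 assembly factors 5 were higher and 28 lower in the deposited values, and 20 were higher and 9 lower after quantile normalisation. Their smallest p-values belonged to Timmdc1 (-0.75 and -0.33, SE 0.04 each) and Foxred1 (-0.80 and -0.49, SE 0.05 each), which build complex I, and to Coa3 (-0.79 and -0.37, SE 0.05 and 0.04), which acts on the translation of a complex IV subunit. In each pair the deposited difference is followed by the one after quantile normalisation, and all 3 genes were called lower in both.

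Of 16 genes of the citric acid cycle and pyruvate dehydrogenase, 2 were higher and 10 lower in the deposited values, and 11 were higher and 1 was lower after quantile normalisation. Ogdh, a subunit of the 2-oxoglutarate dehydrogenase, was the lower one, at -0.59 and -0.14 (SE 0.04 each), while Idh3b and Pdha1 were at -0.39 and -0.34 and were not called after quantile normalisation. Of 73 mitochondrial ribosomal proteins, which make the subunits encoded by mitochondrial DNA, 4 were higher and 56 lower, and 41 and 17 after quantile normalisation. Mrpl13, Mrpl35 and Mrpl36 had the smallest p-values, with -1.16, -1.13 and -1.06 (SE 0.05, 0.05 and 0.06) and, after quantile normalisation, -0.70, -0.68 and -0.64. Of 13 carriers of the mitochondrial membranes 1 was higher and 9 were lower, and 5 and 4 after quantile normalisation. Mpc1, a subunit of the pyruvate carrier, and Slc25a13, an aspartate-glutamate carrier, differed by -0.65 and -0.67 (SE 0.05 and 0.06) and were lower in both scalings, and Slc25a11, the oxoglutarate carrier, was lower in the deposited values, at -0.53 (SE 0.04), but was not called after quantile normalisation.

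Of 17 genes of glycolysis, the route to ATP outside mitochondria, 2 were higher and 14 lower in the deposited values, and 5 were higher and 7 lower after quantile normalisation. Aldoc, an aldolase, differed by -2.34 (SE 0.11, adjusted p = 7.14e-11), Pfkp, a phosphofructokinase, by -1.09 (SE 0.05, adjusted p = 2.4e-11) and Ldha, a lactate dehydrogenase subunit, by -0.81 (SE 0.04, adjusted p = 5.72e-11). After quantile normalisation they differed by -2.04, -0.67 and -0.49. Rhythmic calls were more common in some of these lists than among the subunits. In DCT/CNT 5 of 43 assembly factors, 4 of 16 citric acid cycle genes, 11 of 73 ribosomal proteins and 4 of 17 glycolytic genes were called, beside 6.57% of all genes. In CCD 1, 0, 2 and 3 were called in the same order, beside 2.47% of all genes. Cox20 (amplitude 0.23, adjusted p = 0.000974), Dlat (0.19), Mrpl19 (0.25) and Eno3 (0.39) had the smallest p of these lists in DCT/CNT, and Atpaf2 (0.31), Idh3a (0.16, adjusted p = 0.0545), Mrps28 (0.27) and Pfkp (0.23) in CCD. Differences between lists in these shares were not tested.

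Of 15 regulators of mitochondrial genes, 3 were higher and 10 lower in the deposited values, and 6 were higher and 2 lower after quantile normalisation. Nrf1 itself, the factor whose motif was searched for, had 7.68 ± 0.22 in DCT/CNT and 9.23 ± 0.17 in CCD (SD, n = 12 each), a difference of -1.54 (SE 0.08, adjusted p = 7.74e-11) and of -1.12 after quantile normalisation (SE 0.07, adjusted p = 3.07e-09). Gabpb1, a subunit of the ETS-type factor NRF2, was lower as well, with -0.94 (SE 0.07, adjusted p = 1.42e-08) and -0.71. Perm1, a regulator downstream of the PGC-1 coactivators, was dim and higher by 0.63 (SE 0.04, adjusted p = 1.64e-09) and 0.35. In the rhythm test (limma) 0 of the 15 were called in either segment, and 4 in DCT/CNT and 0 in CCD had an unadjusted p under 0.05.

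Promoter windows of 300 bases (250 before and 50 after the start, RefSeq, GRCm38.p6) were matched for 67 of the 81 genes, in 72 windows, and compared with all 32851 windows of the table. Motifs were searched as plain letters on both strands. The NRF1 core GCGCANGCG was found in 26.4% of the windows of these genes, against 6.25% of all windows. The ETS core CCGGAAG was found in 23.6%, against 8.86%, the CRE TGACGTCA in 4.17%, against 1.79%, the estrogen-related receptor element TCAAGGTCA in 2.78%, against 0.423%, and the E-box CACGTG in 9.72%, against 7.15%. Of the 10 windows of genes lower in the 4 scalings, 2 held the NRF1 core and 4 the E-box, which stood before Atp5g1, Atp5l and Ndufa7. Of the 8 windows of genes higher in the 4 scalings, 2 held the NRF1 core and 0 the E-box. A match describes the letters only and shows neither binding nor a cause, and windows of 1 gene can share bases.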

How the data were processed

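RNA of microdissected DCT/CNT and CCD pools was amplified from 10 ng and hybridised to 24 arrays. The authors deposited log2 values of 45101 probe sets, made with RMA per the submitters' processing notes. The software version, and whether both segments were normalised in 1 run, are not given in the sources used here. Probe sets were joined to symbols through the platform's table (34958 with 1 symbol, 932 with several, 9211 with none), and the probe set with the highest mean was kept for each of 18194 genes.

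Segment differences (mean of 6 DCT/CNT group means minus that of CCD) and 24 h cosinor terms were fitted with limma 3.58.1 in R 4.3.3 over all genes, with no batch term, since the labels name no batch. Benjamini-Hochberg adjustment ran over every gene tested, and an adjusted p under 0.05 was called. Standard errors are limma's. Array number limits the precision. The procedure was tested on simulated data. Quantile and cyclic loess normalisation were run on the gene table.

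The genes and lists were chosen with earlier results of these data known. Named genes were, per complex, the 3 largest called differences each way relative to the median gene and the 2 lowest rhythm p per segment, the 5 lowest p for a rhythm difference, all isoform families, genes that turned under quantile normalisation and names that are not subunits, and for other lists up to 3 genes for the segment and 1 per rhythm test. Alternatives were other scalings, a filter on dim genes (5.854), averaged probe sets, a mean-variance trend, array weights, fits by segment, group-mean F tests and omissions of arrays and times. Pools of 1 number did not deviate together between segments (correlations from -0.025 to 0.086 at the 6 times), so they were not paired.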

Additional observations from a re-analysis of the deposited data

How the results depend on the processing

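Counts of genes called for the segment difference held in number but not in direction under other scalings. With arrays at equal medians 42 genes were higher and 18 lower in DCT/CNT (43.8% and 33.2% of all genes), after quantile normalisation 44 and 13, after cyclic loess 53 and 10, and in a test against the median gene, added after seeing the data, 32 and 26. The median difference of the 81 genes was then 0.11, 0.15 and 0.18 in these 3 scalings and -0.15 with averaged probe sets. By complex, in the order equal medians, quantile and cyclic loess, it was 0.153, 0.213 and 0.244 for complex I (-0.143 with averaged probe sets), 0.0687, 0.113 and 0.159 for II, -0.00926, 0.188 and 0.18 for III, 0.171, 0.0812 and 0.0851 for IV and 0.00343, 0.0163 and 0.0729 for V. Within single times 4 genes were higher and 27 lower at ZT0 (31 in all), 4 and 24 at ZT4 (28), 3 and 27 at ZT8 (30), 7 and 20 at ZT12 (27), 7 and 25 at ZT16 (32) and 7 and 21 at ZT20 (28), with 4 arrays each. Omission of 1 array gave 55 to 59 called genes, 13 to 15 higher and 42 to 45 lower, and omission of 1 time 54 to 57.

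Relative to the median gene, some genes changed sign. Uqcrc1 came to 0.202 after quantile normalisation, 0.199 after cyclic loess and 0.0918 without dim genes, Cox7a1 to 0.0711 and 0.0646 after quantile and cyclic loess normalisation, Atp5g3 to 0.053 after cyclic loess and 0.124 without dim genes, Cox7a2l to 0.0199 and 0.067 in the same settings, Cox7b2 to -0.0101 after cyclic loess, Uqcrh and Cox6a1 to 0.035 and 0.0475 without dim genes, and Atp5k to -0.0983 with averaged probe sets. Without dim genes the median gene itself is another one, which moves every such value. The average for Atp5k takes in its other probe sets, which differed by -0.36 and -0.44 in the deposited values. The cause of the remaining changes was not tested. Uqcrc1 and Atp5g3 lost their call against the median gene in 12 and 19 of the 24 omissions of 1 array.

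Rhythm calls in DCT/CNT numbered 2 with averaged probe sets and 6 with a mean-variance trend, against 0 in the report, and stayed at 0 in all omissions. In CCD, where Ndufs5 was the 1 call, there were 0 with equal medians, 2 after quantile normalisation, 4 without dim genes, 2 with averaged probe sets, 16 with a trend, 4 with array weights, 0 without ZT0, ZT4, ZT8, ZT12 or ZT20, 0 with CCD fitted alone, 0 by an F test over group means, and 0 to 2 in omissions of 1 array. Rhythm differences stayed at 0 in each setting tried. With the pool number as a replicate block, 13 genes were higher and 44 lower, 0 were rhythmic in DCT/CNT and 1 in CCD, and it changed no other count of calls.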
